A study of Mus musculus with 6 samples.

Results

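Round spermatids of an Rnf8 knockout mouse were compared with wild-type round spermatids, using the 2 of the series' 6 arrays that hold these cells, 1 for each genotype. The comparison covers 17925 of 19938 genes: those with a transcript cluster naming that gene alone, at log2 intensity 6 or more on at least 1 of the 6 arrays, each represented by its cluster of highest mean. The other 2013 genes did not reach that level. Intensity is the brightness of a cluster's probes after the authors' normalization, and all levels below are its log2. A difference is KO minus WT, so -1 is a 2-fold lower level in the knockout.

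The WT group is wild type and the KO group carries the label RNF8-KO, both on a C57BL/6 background. Each cell preparation came from 3 to 4 males and was enriched by sedimentation through bovine serum albumin under gravity, with a stated purity above 95% by nuclear staining. The same cells were prepared at the pachytene stage of meiosis, with 2 WT and 2 KO arrays. Neither the ages of the males, nor the part of Rnf8 removed, nor whether arrays of a group hold separate preparations is given in the sources used here.

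Rnf8 is a ubiquitin ligase that modifies histones beside DNA breaks and, in meiotic cells, on the X and Y chromosomes. The sex chromosomes largely lack a pairing partner in male meiosis and are silenced as a block in pachytene spermatocytes. Much of that silence persists in round spermatids, the haploid cells that follow, while a set of sex-linked genes becomes active there. The study asks whether Rnf8 has a part in that activation.

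With 1 array per genotype the spermatid arrays give no spread of their own, so genes are described by fold thresholds without a p-value. A limma fit that borrows the spread of the pachytene arrays is given once, after the descriptions. The spread over genes of the KO minus WT difference was 0.24 (SD), against 0.20 between the replicate WT pachytene arrays and 0.36 between the replicate KO pachytene arrays. That replicate gap was at least 2-fold for 29 genes in WT and for 183 genes in KO, so 2-fold gaps also occur between arrays of 1 genotype. None of the 29 is X-linked, while 24 of the 183 are, all of them higher on KO pachytene array 1. Median intensity was 197 on the WT and 207 on the KO round spermatid array, within the range of 197 to 218 over all arrays.

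Both preparations had the transcripts of round spermatids at nearly equal levels. The summed intensity of 20 round spermatid markers was 104142 in WT and 103099 in KO, against 59207 to 72993 on the pachytene arrays, and all 20 were above log2 6. The median difference of these markers was 0.00, with 11 lower in KO and none changed 1.5-fold. They are bright, with a median level of 12.26. Among 2651 tested genes at level 11 or more, 0 were 1.5-fold lower in KO and 1 was higher, so the lack of 1.5-fold changes says little. The transition protein genes Tnp1 (12.36 in WT and 12.13 in KO) and Tnp2 (12.79 and 12.67) and the protamine genes Prm1 (13.23 and 13.20) and Prm2 (13.56 and 13.51), whose products pack sperm DNA, differed little. Prm1 and Prm2 already read 12.85 to 13.44 on the pachytene arrays, so they separate the stages poorly. The sum of 20 pachytene markers was 42488 in WT and 42835 in KO.

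Sertoli cell markers were somewhat brighter in the KO preparation. All 24 measured were higher (Aard and Trf turned lower in a second quantile normalization and relative to genes of like level), with a median difference of 0.23, and their summed intensity was 8548 in WT and 10171 in KO, with none under log2 6. Of 20 peritubular and vessel markers 17 were higher (sums over 21 measured, 12488 and 13432, 1 under log2 6), of 30 spermatogonial markers 22 (sums 11535 and 12583, none under log2 6), of 10 Leydig markers 7 (sums over 11 measured, 2267 and 2689, 2 under log2 6), and of 14 macrophage and blood markers 9 (sums 3876 and 4625, none under log2 6). The single members that passed 1.5-fold were the inhibin subunit Inha (9.48 and 10.07), the steroid enzyme Cyp17a1 (8.70 and 9.30) and the Fc receptor Fcgr3 (10.41 and 11.14). Fcgr3 is the brightest macrophage and blood marker and weighs most in their sums. It was also higher in KO pachytene cells (11.02 and 11.04 in WT, 11.69 and 11.71 in KO). The median difference of that list was 0.01, and 5 of its 14 markers were lower, among them Adgre1 (7.65 and 7.33) and C1qb (9.21 and 8.90). Dim genes as a whole were also brighter on the KO array: the median difference was 0.15 for genes of mean level 7 to 8, of which 22.2% were lower in KO, and -0.02 for genes of level 11 or more. Relative to genes of like level, the median was 0.15 for Sertoli, 0.12 for peritubular and vessel, 0.10 for Leydig, 0.07 for spermatogonial and -0.12 for macrophage and blood markers. The part of these shifts in the results that follow was not tested, and in bulk preparations fewer cells of a type and less RNA per cell cannot be told apart.

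The targeted gene itself checks the labels only in part. The array's single cluster for Rnf8 also lists the readthrough gene Gm28043, and it read 7.78 in WT and 7.50 in KO spermatids, which is 1.22-fold lower. On the pachytene arrays it read 8.51 and 8.86 in WT and 7.86 and 8.05 in KO, with no overlap between the groups. Of all tested genes, 7.91% had a more negative difference in round spermatids.

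A limited set of genes read lower on the KO than on the WT spermatid array. At 2-fold most of this set was X-linked, while at 1.5-fold most was autosomal, though the X-linked share of tested genes was higher at both thresholds. At least 2-fold lower in KO were 63 genes, or 0.351% of those tested, and at least 2-fold higher were 6, or 0.0335%. At 1.5-fold the counts were 273 lower (1.52%) and 70 higher (0.391%). Of the 63 lower genes 35 are X-linked, 1 is Y-linked, 26 are autosomal and 1 has no assigned chromosome. The X chromosome thus had 35 of its 624 tested genes (5.61%) at least 2-fold lower, the autosomes 26 of 17217 (0.151%). At 1.5-fold the shares were 80 genes (12.8%) on X and 189 (1.1%) on autosomes. A single X-linked gene was 1.5-fold higher, the apelin peptide gene Apln, at 7.32 in WT and 7.96 in KO. X-linked genes also varied widely between the replicate KO pachytene arrays. There 85 were 1.5-fold higher and 33 lower on array 1, and the X-linked SD was 0.47, the same as in this comparison. Between the WT pachytene replicates the counts were 1 and 12, with an SD of 0.21.

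**Figure D1:**
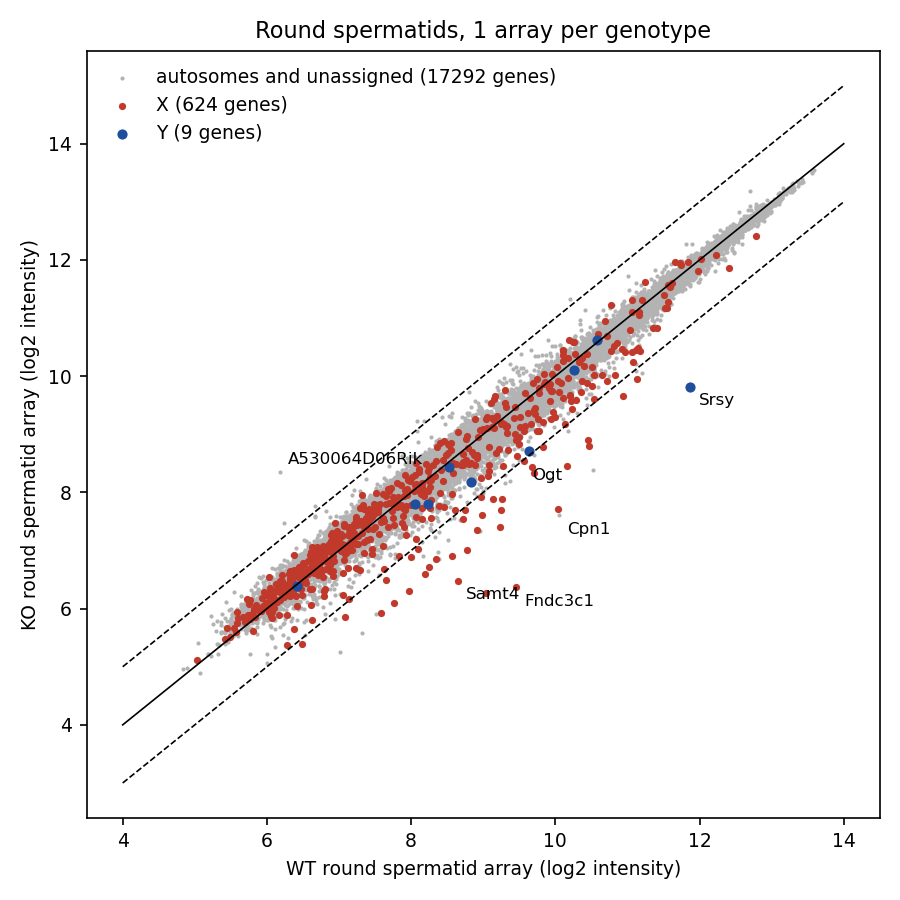
Log2 intensity of each of 17925 tested genes on the WT round spermatid array (horizontal axis) against the KO round spermatid array (vertical axis), with X-linked genes in red, Y-linked genes in blue and all others in grey; the solid line is equality and the dashed lines are 2-fold differences. Of the 63 genes on or below the lower dashed line 35 are X-linked, and none of the 6 on or above the upper line is.

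The middle of the X-linked distribution lay near that of the autosomes. The median X-linked difference was 0.03, beside 0.05 for autosomal genes, and 288 of 624 X-linked genes (46.2%) were lower in KO, against 40.6% of autosomal genes. The gap lay in the lower tail: the 5th percentile was -1.05 on X and -0.34 on autosomes, while the 95th percentile was 0.36 on both. By mean level of the spermatid arrays, the X-linked median lay below the autosomal one in every class, with the widest gaps in the middle. It was 0.09 against 0.12 under log2 6, 0.07 against 0.13 at 6 to 7, 0.10 against 0.16 at 7 to 8 and -0.12 against 0.05 at 8 to 9. It was -0.20 against -0.06 at 9 to 10, -0.28 against -0.04 at 10 to 11 and -0.05 against -0.02 at 11 or more.

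The threshold runs through a continuous range of values. Just inside it were Ttc14 at -1.0 and Gpr4 at -1.01, and just outside were the myosin gene Myo1e at -0.997 and Gm10619 at -0.992. On the other side Meis3, at 0.98, fell just short and Vars2, at 1.05, lay just inside.

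The gene with the widest gap was Fndc3c1, a fibronectin type III domain gene of the X chromosome. In round spermatids it read 9.46 (WT) and 6.37 (KO), while the pachytene arrays read 7.03 and 7.22 in WT and 6.04 and 6.57 in KO. The KO spermatid level thus lay under both WT pachytene levels. Fndc3c1 has 4 GC boxes (GGGCGG on either strand) in the 250 bases before its start, more than any other promoter shown here, and is shown for that reason. The sequence comes from RefSeq on GRCm38.p6, chrX:106485230-106485479 on the minus strand, written 5′ to 3′ toward the gene with the GC boxes in capitals. Of its bases 64% are G or C, with 14 CpG pairs.
Fndc3c1: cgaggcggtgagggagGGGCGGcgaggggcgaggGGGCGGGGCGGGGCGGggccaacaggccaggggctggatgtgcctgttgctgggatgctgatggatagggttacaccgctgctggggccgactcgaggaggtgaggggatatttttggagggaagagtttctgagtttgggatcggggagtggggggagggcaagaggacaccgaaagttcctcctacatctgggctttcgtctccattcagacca

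The Samt genes, X-linked genes for multipass membrane proteins made in spermatids, differed in size of response. Samt4 read 8.65 (WT) and 6.48 (KO) in spermatids, and 6.12, 6.07 (WT) and 5.55, 5.28 (KO) in pachytene cells. Samt3 read 9.24 and 7.41, a difference of -1.83, with 6.99 and 7.28 in WT and 6.18 and 5.68 in KO pachytene cells. For both genes the pachytene values of the genotypes did not overlap either. Samt2b, the brightest of the 3 tested, read 10.20 and 9.67 (-0.53), and its pachytene levels overlapped.

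The promoters of Samt4 and Samt3 are shown because both genes responded. They were 47.2% identical over the whole alignment, with 33.2% and 32.8% G or C and no CpG pair in either. That identity is an average over the window and does not describe shorter shared stretches, such as catggaaacat, which both hold. Both are from RefSeq on GRCm38.p6, Samt4 at chrX:154481752-154482001 on the plus strand and Samt3 at chrX:86043949-86044198 on the plus strand. Capitals mark the CCAAT box (CCAAT, or ATTGG where it lies on the other strand).
Samt4: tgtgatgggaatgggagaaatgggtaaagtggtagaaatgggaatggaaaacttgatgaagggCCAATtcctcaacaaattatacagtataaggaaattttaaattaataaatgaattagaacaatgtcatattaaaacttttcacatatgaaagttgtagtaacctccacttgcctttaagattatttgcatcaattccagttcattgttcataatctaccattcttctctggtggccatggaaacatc
Samt3: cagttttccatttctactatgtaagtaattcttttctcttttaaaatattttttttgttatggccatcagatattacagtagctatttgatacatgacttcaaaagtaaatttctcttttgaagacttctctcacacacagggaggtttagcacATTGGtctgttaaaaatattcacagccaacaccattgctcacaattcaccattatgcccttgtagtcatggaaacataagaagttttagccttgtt

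A run of Ssx genes gave the longest stretch of neighbouring X-linked genes that were lower together. The Ssx genes encode nuclear proteins related to human genes known from synovial sarcoma fusions. In gene order Ssxb10, Ssxb2, Ssxb3, Ssx9 and Ssxb5 are 5 consecutive tested genes, and all 5 were at least 2-fold lower in KO. Ssxb2 read 8.97 in WT and 7.92 in KO (-1.06), and Ssxb5 read 8.73 and 7.55 (-1.18). Ssx9 read 8.34 and 6.85, Ssxb10 7.65 and 6.50, and Ssxb3 7.59 and 5.93. The sixth tested member, Ssxa1, lies elsewhere on X and read 6.28 and 5.37, close to the dim end of the array. In pachytene cells all 5 were dim, between 5.31 and 7.12 over the 4 arrays, and the genotypes overlapped there for Ssx9.

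Array probes may read several copies of such a family at once, so these 5 readings need not be independent. Their promoters fall into a pair of near-identical types, which is why 4 are shown. Ssxb2 and Ssxb3 were 92.5% identical, Ssxb5 and Ssx9 were 94.8% identical, and identity between the types was 43.4% to 45.5%. The windows are from RefSeq on GRCm38.p6: Ssxb2 at chrX:8461727-8461976 on the minus strand, Ssxb3 at chrX:8591817-8592066 on the minus strand, Ssxb5 at chrX:8803441-8803690 on the plus strand and Ssx9 at chrX:8748180-8748429 on the plus strand. Capitals mark the CCAAT box, which only Ssxb2 holds of these 4.
Ssxb2: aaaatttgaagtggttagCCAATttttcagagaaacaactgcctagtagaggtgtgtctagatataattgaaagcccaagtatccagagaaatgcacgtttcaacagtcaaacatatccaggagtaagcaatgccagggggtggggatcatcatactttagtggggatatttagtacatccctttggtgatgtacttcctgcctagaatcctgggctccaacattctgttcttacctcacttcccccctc
Ssxb3: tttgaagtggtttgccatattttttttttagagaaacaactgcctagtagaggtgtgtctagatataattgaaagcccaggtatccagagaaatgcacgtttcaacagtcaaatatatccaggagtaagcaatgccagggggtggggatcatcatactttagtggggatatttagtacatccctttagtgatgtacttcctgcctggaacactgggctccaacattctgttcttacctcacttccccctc
Ssxb5: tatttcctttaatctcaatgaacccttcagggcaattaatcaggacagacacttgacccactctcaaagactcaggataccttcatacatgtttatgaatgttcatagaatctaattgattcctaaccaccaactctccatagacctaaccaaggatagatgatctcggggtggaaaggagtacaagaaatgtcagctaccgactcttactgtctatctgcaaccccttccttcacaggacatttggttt
Ssx9: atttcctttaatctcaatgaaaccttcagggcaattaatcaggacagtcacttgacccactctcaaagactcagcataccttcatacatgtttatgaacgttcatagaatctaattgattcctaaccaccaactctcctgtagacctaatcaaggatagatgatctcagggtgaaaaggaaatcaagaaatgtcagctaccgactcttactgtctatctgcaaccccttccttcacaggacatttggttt

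Over the whole set, promoters of the lower X-linked genes were poorer in CpG pairs than those of other X-linked genes. RefSeq windows of 300 bases, from 250 before to 50 after the start, were at hand for 30 of the 35 genes. Their median G or C content was 47.8% (quartiles 43.2% and 55.4%), against 56.0% for 458 X-linked genes that were not 1.5-fold lower. At least 10 CpG pairs were found in 9 of 30 (30.0%), against 59.2% of the 458. The CCAAT box was in 18 of 30 windows (60.0%), against 47.1% of tested X-linked genes and 37.9% of all promoters, and the GC box (GGGCGG) in 8 (26.7%), against 49.2% and 35.9%. The shorter site TGACG of the cyclic AMP response element, which lies within the full TGACGTCA site, was in 6 (20%), against 26% and 21%, and the full site in 1 (3.33%), against 1.33% and 1.88%. TATAAA was in 3 (10%), against 10.6% and 14.2%. CACGTG was in 3 (10%), against 10.1% and 7.24%, and GTTGCC in 5 (16.7%), against 12.7% in both. Both strands were searched in each case, and these shares are descriptions of letters, not of binding.

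Beyond the Samt and Ssx families, the lower X-linked genes held further testis families. Rhox11, a homeobox gene, read 8.77 in WT and 7.01 in KO (-1.76), while the other 6 tested Rhox genes differed by -0.08 to 0.25. The PRAME relative Prame read 10.94 and 9.66 (-1.27). Ube2dnl1, named for likeness to ubiquitin-conjugating enzymes, read 10.45 and 8.91 (-1.55), and its neighbour Ube2dnl2 read 10.72 and 9.91 (-0.80). Of 4 tested Cldn34 genes, Cldn34b3 read 9.13 and 7.90 (-1.23) and Cldn34b4 read 11.06 and 11.32 (0.25). All 5 tested Cypt genes, which encode small basic spermatid proteins, were lower: the X-linked Cypt1 by -0.79, Cypt3 by -0.67 and Cypt2 by -0.49, and the autosomal Cypt4 by -0.48 and Cypt12 by -0.21.

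Single genes with known roles in many tissues were among the lower X-linked genes as well. Pak3, a kinase downstream of small GTPases, read 10.16 in WT and 8.45 in KO (-1.71), and in pachytene cells 8.31 and 8.40 in WT and 7.49 and 7.88 in KO. Cenpi, a centromere protein gene, read 8.91 and 7.35 (-1.56). The corepressor gene Bcorl1 read 9.26 and 7.89 (-1.36). Rps6ka6, a ribosomal S6 kinase gene, read 9.82 and 8.78 (-1.04), beside its neighbour Hdx at 6.48 and 5.40. Ogt, which encodes the enzyme that adds O-GlcNAc to proteins, read 9.56 and 8.54 (-1.02), with 8.27 and 8.17 in WT and 8.10 and 7.78 in KO pachytene cells. Tceal1, of a family of elongation factor relatives, read 7.76 and 6.09, while its 4 tested relatives differed by -0.11 to 0.10.

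The remaining lower X-linked genes are known here by clone or predicted names or are poorly described. Ppp4r3c-ps read 10.03 and 7.72 (-2.31), Gm614 10.47 and 8.80 (-1.67), and Gm5071 9.25 and 7.70 (-1.55). Gm9 read 9.68 and 8.44 (-1.24), 4933400A11Rik 11.13 and 9.94 (-1.18), 4930550L24Rik 9.70 and 8.33 (-1.36), and 1700013H16Rik 8.99 and 7.62 (-1.37). Gm5071 has 3 clusters, which differed by -1.76, -1.71 and -1.55. Xlr, of a family of lymphocyte-regulated genes, read 8.10 and 7.03 (-1.07), and Ccdc160 read 8.75 and 7.71 (-1.05). The KO level was under log2 7, where no fold is given, for 4930595M18Rik (9.04 and 6.27), Dnaaf6b (7.97 and 6.30), Gm14812 (8.57 and 6.90), 4930480E11Rik (8.19 and 6.60), Gm35586 (8.24 and 6.71), 3830403N18Rik (8.00 and 6.88) and Tex28 (7.08 and 5.86). In all, 14 of the 35 had a KO level under 7.

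**Figure D2:**
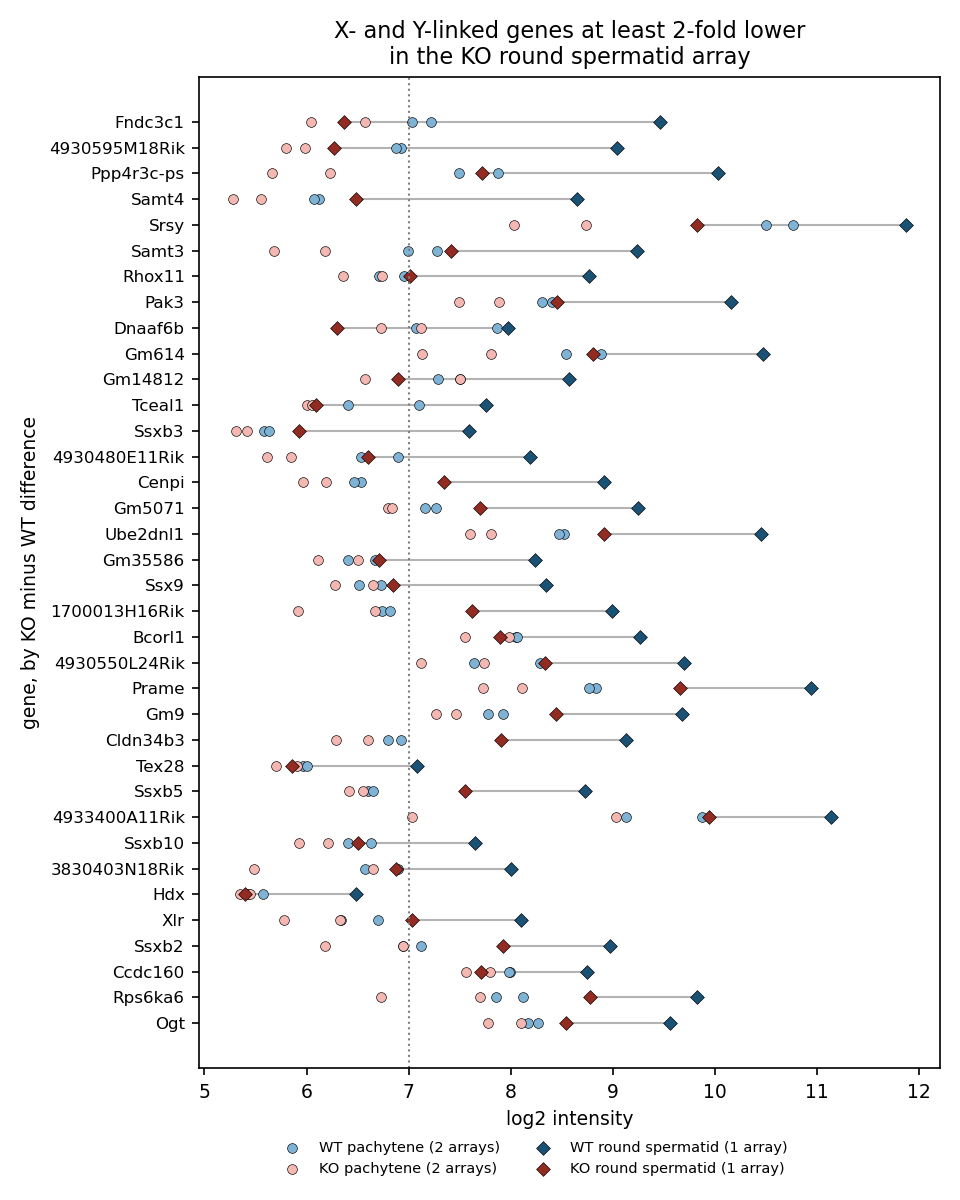
Log2 intensity (horizontal axis) of the 35 X-linked genes and the Y-linked Srsy that were at least 2-fold lower in KO round spermatids, ordered by difference; circles are the 2 WT (light blue) and 2 KO (pink) pachytene arrays, diamonds the single WT (dark blue) and KO (dark red) round spermatid arrays, and the dotted line is log2 7. Of the 35 X-linked genes, 9 had a KO spermatid level below both WT pachytene levels, as for Fndc3c1. The same held for 109 of all 624 tested X-linked genes and for 6889 of all 17925 tested genes.

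Lower X-linked genes were spread along the chromosome, with some in short runs. Of the 80 X-linked genes at least 1.5-fold lower, 26 lay in 10 runs of 2 or more consecutive tested genes, and these runs held 13 of the 35 genes lower by 2-fold. After the Ssx run the longest was Xlr, 3830403N18Rik, Gm35586 and Gm773. Gm614 lay beside the Mediator subunit gene Med12 (9.28 in WT and 8.46 in KO), and H2ap beside H2al3, both related to histone H2A (-0.66 and -0.68).

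**Figure D3:**
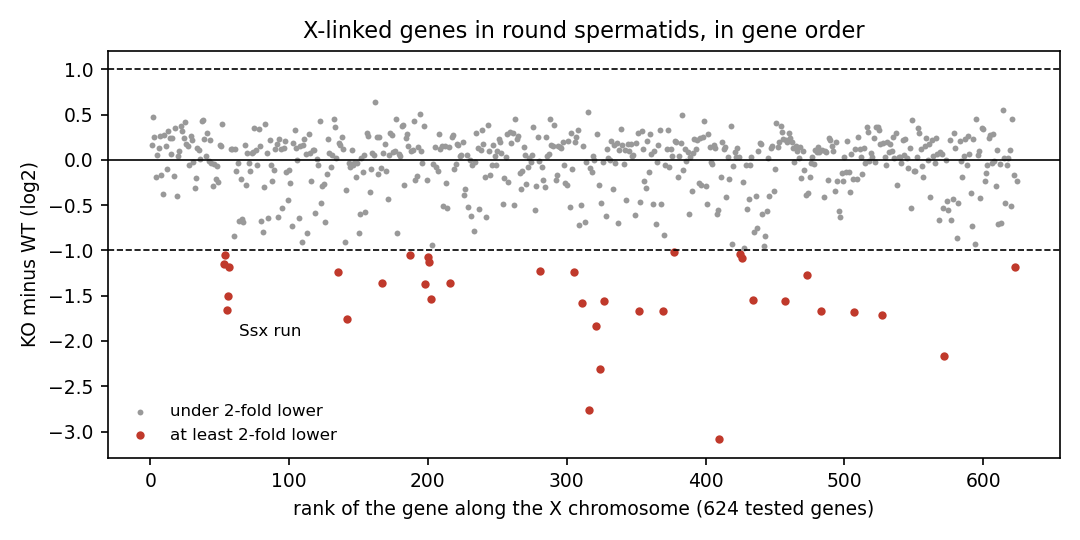
KO minus WT log2 difference in round spermatids (vertical axis) for 624 tested X-linked genes placed by their rank along the chromosome (horizontal axis); red points are the 35 genes at least 2-fold lower and dashed lines mark 2-fold. The red points lie along the whole chromosome, and the 5 neighbouring Ssx genes form the longest run.

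The share of X-linked genes that were 2-fold lower was similar over pachytene levels up to log2 9. By mean WT pachytene level, which the spermatid arrays do not enter, 2-fold lower genes made up 6.25% of 48 X-linked genes under log2 6, 6.42% of 218 at 6 to 7, 5.64% of 195 at 7 to 8, 5.36% of 112 at 8 to 9 and 1.96% of 51 at 9 or more. On autosomes no such level class passed 0.891%.

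Fewer X-linked genes stood 2-fold above their pachytene level in KO than in WT spermatids, and the same held for autosomal genes. In WT, 182 of 624 X-linked genes (29.2%) were at least 2-fold above their pachytene mean, and in KO 128 (20.5%) were. These comparisons share no array, and 126 genes were in both counts. The share of the WT count that was also reached in KO was 69.2% on X and 70.8% on autosomes, where 1308 genes stood 2-fold above pachytene in WT and 974 in KO. At 4-fold the X-linked counts were 30 in WT and 5 in KO, and the autosomal counts 58 and 17.

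Many X-linked genes with known spermatid roles reached like levels in both genotypes. Cfap47, a sperm tail gene, read 7.36 and 7.09 in WT pachytene cells and 9.65 in WT spermatids, against 8.31, 6.90 and 9.62 in KO. Spaca5, an acrosomal lysozyme-like gene, reached 10.11 in WT and 10.27 in KO. Cylc1, which encodes a cytoskeletal protein of the sperm head, reached 11.06 and 11.10. Akap14, an anchoring protein gene for protein kinase A, was higher in KO (10.77 and 11.23), as was the deubiquitinase gene Usp26 (8.65 and 9.04). Of the 56 X-linked genes whose 2-fold rise was seen in WT alone, Fndc3c1 had the widest spermatid gap, and Zfx, Kdm6a and Kdm5c, a zinc finger factor and a pair of histone demethylases, were also among them with small differences of -0.32, -0.12 and -0.19.

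By list, the multicopy and germline families of the X chromosome had a lower median than the other X-linked lists. Of 32 tested members, 30 of them on X (Cypt4 and Mageb3 are autosomal), 23 were lower, 11 by 1.5-fold and 7 by 2-fold, with a median of -0.32, and another 47 of the 84 listed had no single-gene cluster. Of 25 X-linked single-copy spermatid genes 15 were lower and 4 by 1.5-fold (Tex28, Ccdc160, Dynlt3 and H2ap), with a median of -0.03. Of 59 X-linked widely expressed genes 31 were lower and 5 by 1.5-fold (Ogt, Ofd1, Ube2a, Thoc2 and the glycolytic gene Pgk1), with a median of -0.04. In this list Rbbp7 (9.31 and 9.76) and Taz (7.33 and 7.78) had the highest positive differences, 0.45 each. Among all 624 tested X-linked genes 46.2% were lower, 12.8% by 1.5-fold and 5.61% by 2-fold. Over all tested genes these shares were 40.9%, 1.52% and 0.351%. The 1.5-fold counts of the single-copy and widely expressed lists lie near the X-linked share, so nothing about these lists is read from them. When arrays were centred on bright autosomal genes, the multicopy median was -0.26 and those of the other X-linked lists turned to 0.03 and 0.02, so neither of these has a settled direction. Over all tested genes the median was 0.05 in the deposited scaling and 0.10 in that one.

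On the Y chromosome 8 of 9 tested genes were lower in KO, with a median of -0.25, though Kdm5d turned higher with arrays centred on bright autosomal genes. Srsy, a multicopy Y-linked gene, read 11.87 in WT and 9.82 in KO (-2.05), and in pachytene cells 10.76 and 10.50 in WT and 8.74 and 8.03 in KO. All 19 clusters that name Srsy alone were lower, with differences from -2.34 to -1.68, though clusters of a multicopy gene may read the same transcripts. Zfy1 and Zfy2, zinc finger transcription factor genes, read 9.64 and 8.70 (-0.94) and 8.83 and 8.18 (-0.65). The deubiquitinase gene Usp9y read 8.23 and 7.80, the demethylase relative Uty 8.05 and 7.81, the ubiquitin-activating enzyme gene Uba1y 10.26 and 10.11, the testis-determining gene Sry 8.52 and 8.45, the demethylase gene Kdm5d 6.42 and 6.38, and the translation factor gene Eif2s3y 10.57 and 10.62. The Zfy relative Zfa-ps, an autosomal retroposed copy on chromosome 10, lay the other way, at 6.23 in WT and 7.46 in KO.

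On autosomes the lower genes were few and partly grouped on chromosome 17, which carries Rnf8. That chromosome held 8 of the 26 and 2 of the 6 higher genes, among 849 tested (0.942% lower), against 18 of 16368 (0.110%) on the other autosomes. Within 100 tested genes of Rnf8 on either side there were 2 lower genes among 200 (1.0%), 1700049J03Rik (8.95 and 7.34) and Zfp81 (9.37 and 8.20), and no higher gene. Umodl1, 8 genes away, read 9.21 and 8.61 (-0.60). The other 6 lay farther off: the RING finger gene Unkl (10.52 and 8.39), Zfp943 (9.92 and 8.23), Zfp942 (10.17 and 9.06), the ribosome maturation kinase gene Riok2 (9.30 and 8.16), Olfr127 (6.95 and 5.82) and 4930470H14Rik (7.01 and 5.25). Unkl has a second cluster, which differed by -0.86.

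Elsewhere the largest autosomal difference was that of Cpn1 on chromosome 19, the catalytic subunit of carboxypeptidase N, at 10.05 in WT and 7.61 in KO (-2.44). Its pachytene levels were 8.55 and 10.64 in WT and 7.43 and 7.27 in KO, so the WT arrays themselves lay far apart. Also on 19 were Rnls, the renalase gene (11.20 and 10.06), and the nuclear long noncoding RNA gene Malat1 (8.68 and 7.52). Plxnb2, a semaphorin receptor gene, read 11.12 and 10.09, Bloc1s6 of the lysosome-related organelle complex 9.82 and 8.77, Cmc1 9.71 and 8.65, the proton-sensing receptor gene Gpr4 9.0 and 7.98, and the snoRNA gene Snord42b 8.75 and 7.73. Tmem45a2 read 8.51 and 7.18, Zfp971 8.60 and 7.57, Cd5l 8.39 and 7.33, Ttc14 8.16 and 7.15, and Gm10741, without an assigned chromosome, 8.33 and 7.24. The rest had KO levels under log2 7: Olfr787 (7.32 and 5.59), Zfp442 (7.52 and 5.90), Pilra (8.39 and 6.85), Vmn1r43 (8.37 and 6.97), Gm14149 (8.17 and 6.91) and Olfr1509 (8.02 and 6.90).

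Higher in KO were A530064D06Rik on chromosome 17 (6.18 and 8.35), the cytokine gene Il9 (8.09 and 9.22), Rundc3a (10.21 and 11.32), Malrd1 (6.66 and 7.76), the mitochondrial valyl-tRNA synthetase gene Vars2 (8.18 and 9.23) and Zfa-ps. Malrd1's other cluster differed by -0.13, so its clusters disagree.

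The same genes were then read on the pachytene arrays. These entered the level filter and the choice of each gene's cluster, but not the 2-fold threshold. Over all tested genes, the 2 KO pachytene values were lower than both WT values for 10.2% and higher than both for 14.9%. Of the 63 genes lower in spermatids, 43 (68.3%) had both KO pachytene arrays below both WT arrays and none had them above, with a median pachytene difference of -0.47 (quartiles -0.78 and -0.30). Of the 35 X-linked ones 27 did (77.1%), against 9.13% of all tested X-linked genes, and all 35 had a lower KO mean. Of the 26 autosomal genes 15 did (57.7%), and without chromosome 17 the count was 9 of 18. Of the 6 higher genes 5 (83.3%) had both KO pachytene arrays above both WT arrays, all but Vars2. Over the 273 genes 1.5-fold lower, 108 (39.6%) had both KO pachytene arrays lower.

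The gap was mostly narrower in pachytene cells. Only 2 of the 63 genes had a larger difference there, against 6700 of all 17925 tested genes. The 63 were chosen for a wide gap between the spermatid arrays. A narrower gap on other arrays follows in part from that choice, so nothing is read from it. No gene passed limma's test in pachytene cells (smallest adjusted p 0.414, with 430 genes at an unadjusted p under 0.05). The KO pachytene arrays differed in spermatid transcripts: summed round spermatid markers were 72993 on KO array 1 and 59207 on KO array 2, against 64303 and 60504 in WT. Their part in these counts was not tested. Without KO pachytene array 1 the count was 56 of 63, against 28.4% of all genes, and without array 2 it was 47, against 41.2%.

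**Figure D4:**
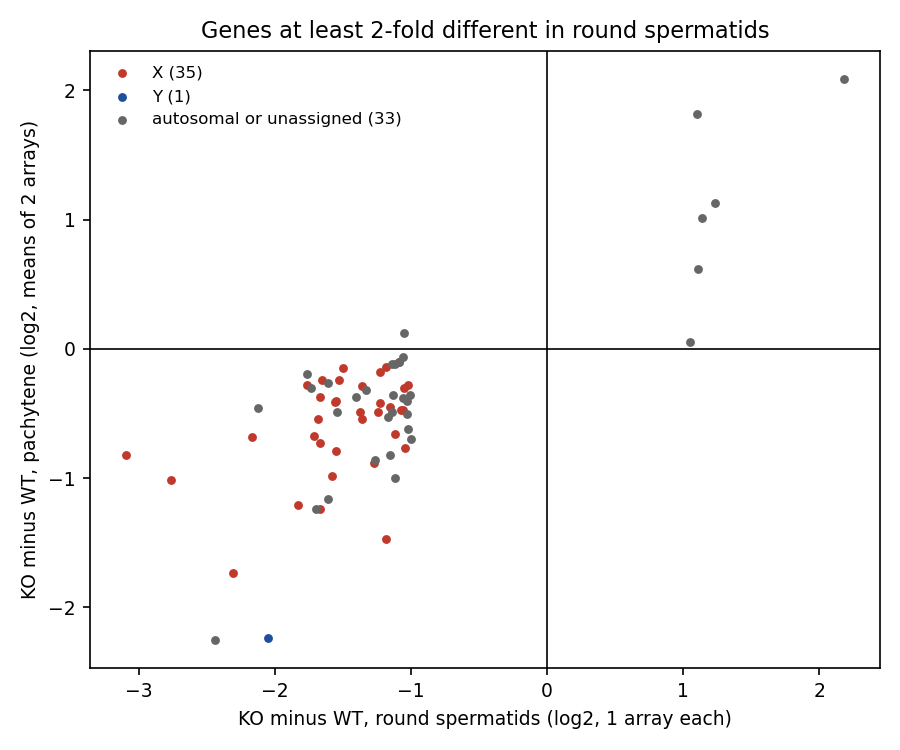
KO minus WT log2 difference in round spermatids (horizontal axis, 1 array each) beside that in pachytene spermatocytes (vertical axis, means of 2 arrays each) for the 69 genes at least 2-fold different in round spermatids, X-linked in red, Y-linked in blue and all others in grey. All 35 X-linked points lie below 0 in pachytene cells, as do 62 of the 63 genes lower in spermatids, and the 6 higher genes lie above 0.

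Within the knockout, most of the 35 X-linked genes were still brighter in spermatids than in pachytene cells. The KO spermatid level lay above both KO pachytene levels for 28 of 35 (80.0%), against 55.0% of tested X-linked genes and 32.5% of all genes. The WT level lay above both WT pachytene levels for 35 of 35, against 59.5% of tested X-linked genes and 34.6% of all genes. In limma's fit of 4 groups 15 of the 35 passed as higher in KO spermatids than in KO pachytene cells (8.36% of all genes did) and 31 in WT (11.5%). The median rise was 0.87 in KO and 1.81 in WT. Tested X-linked genes as a whole passed limma more often than all genes in both genotypes, so the all-gene shares overstate the contrast. The 35 genes were chosen for a gap between the spermatid arrays, which favours a high WT and a low KO spermatid level. The high WT counts and the lower KO counts both follow in part from that choice. Nothing is read from the WT counts or from their gap to the KO counts.

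When limma lent the lone spermatid arrays the spread of the pachytene pairs, no gene passed at an adjusted p of 0.05 (320 at an unadjusted p under 0.05). The nearest was 4930595M18Rik, with adjusted p 0.0534 in limma. This fit has 2 residual degrees of freedom and assumes that a spermatid array varies like a pachytene array.

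No tested gene of Rnf8's own pathway was 1.5-fold apart, and over all tested genes only 1.52% were 1.5-fold lower and 0.391% higher. Of 37 tested genes of ubiquitin and damage signalling 25 (67.6%) were lower, with a median of -0.08, or -0.03 with arrays centred on bright autosomal genes. Of all tested genes 40.9% were lower, and of those at this list's level, 10 to 11, 61.1%. Brca1, which acts in repair and on the meiotic sex chromosomes, read 9.35 in WT and 8.86 in KO, its partner Abraxas1 9.07 and 8.62, Uimc1 8.12 and 8.31, and the deubiquitinase gene Brcc3 7.30 and 7.52.

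Among 43 genes of histone variants, histone acetylation and the histone to protamine exchange 30 (69.8%) were lower and 1 by 1.5-fold, with 61.1% of all genes of level 10 to 11 lower. The list's median of -0.04 turned to 0.01 with arrays centred on bright autosomal genes. The 1.5-fold lower gene was H2ab1, an X-linked histone H2A variant gene, at 11.18 in WT and 10.43 in KO (-0.75), with 9.65 and 9.81 in WT and 8.71 and 8.53 in KO pachytene cells. Msl3, of the complex that acetylates histone H4, read 10.54 and 10.03. The testis histone genes H2ac1 (12.70 and 13.19) and H2bc1 (11.54 and 11.90) were higher.

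Lists of the spermatid programme had no member past 1.5-fold. These were 59 acrosome genes (median -0.06), 98 sperm tail genes (-0.04), 27 ion channel and transporter genes (-0.02), 37 transcription regulators (-0.02) and 37 genes of mRNA storage and translation (-0.03). The same held for 26 piRNA pathway genes (-0.09), 53 meiotic prophase genes (-0.04), 81 oxidative phosphorylation genes (0.00) and 45 proteasome genes (0.00). Over all tested genes only 1.52% were 1.5-fold lower and 0.391% higher. Acrosome, tail and ion channel genes are also bright, with median levels of 11.97, 11.94 and 12.07. Among 2651 tested genes at level 11 or more, 0 were 1.5-fold lower and 1 was higher, so nothing is read from the absence of such members. The acrosome, tail, ion channel and piRNA lists hold no X-linked gene, which limits their contrast with the X-linked lists. Cfap47 and Spaca5, for example, were counted in an X-linked list, and the tail list leaves out Dnaaf6b (7.97 and 6.30). Of 29 p53 target genes 26 were higher and 3 (10.3%) lower, with a median of 0.16, or 0.07 relative to genes of like level. Of all genes at this list's level, 7 to 8, 22.2% were lower, so most genes of that level were higher too. Of 61 ribosomal protein genes Rpl34 (9.55 and 10.14) and Rps3a1 (8.28 and 8.95) were 1.5-fold higher, and of 10 autosomal retrogenes of X-linked parents Zfa-ps alone passed. Medians between -0.06 and 0.03 changed sign or reached 0 under at least 1 other scaling in most of these lists, so they show no direction.

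**Figure D5:**
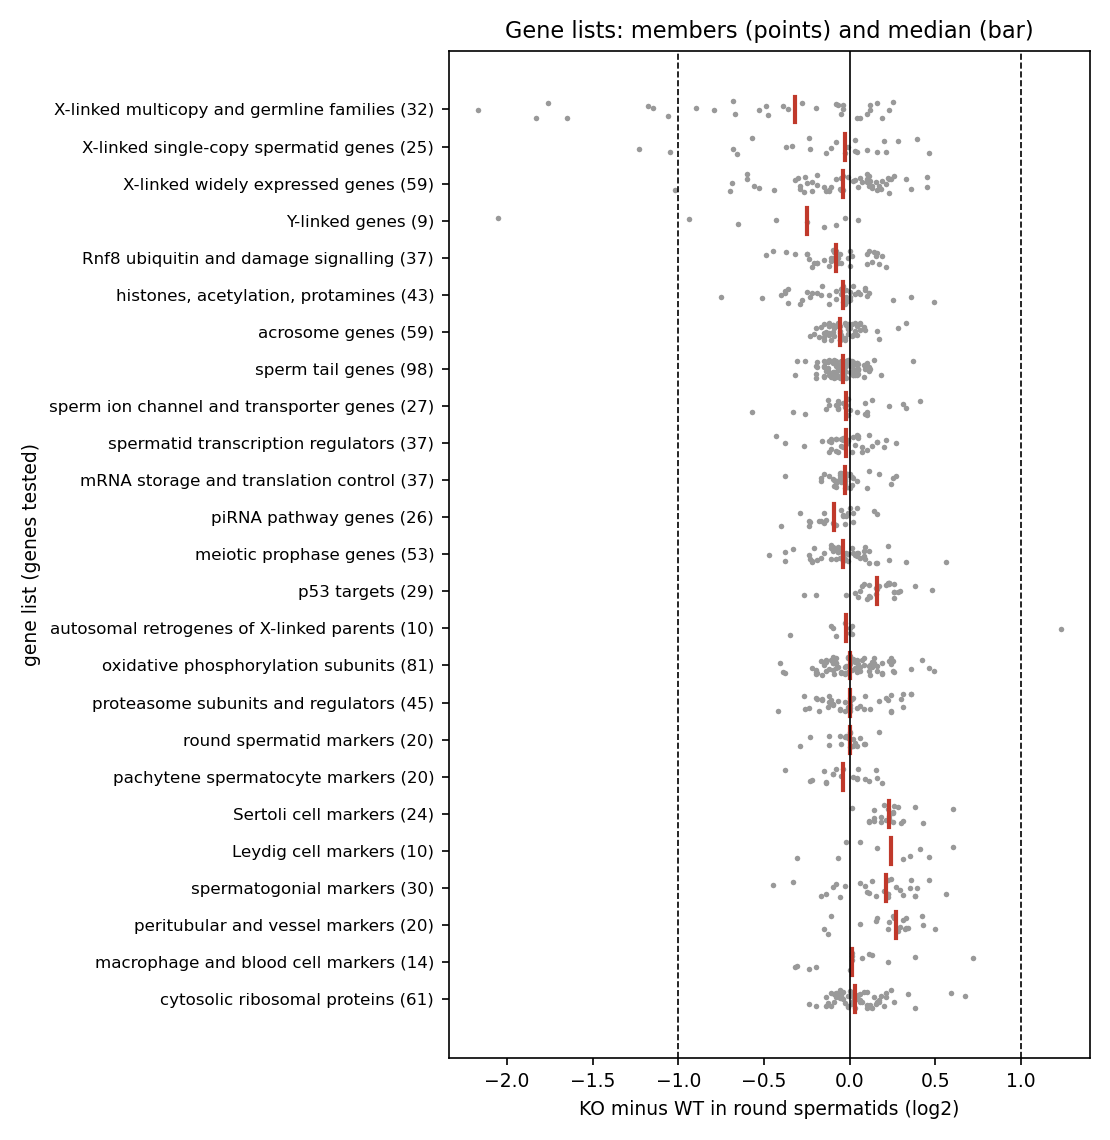
KO minus WT log2 difference in round spermatids (horizontal axis) for the tested members of each gene list (grey points, spread vertically for view) with the list's median (red bar); dashed lines mark 2-fold and the number tested follows each name. The X-linked multicopy families (median -0.32) and the Y-linked genes (median -0.25) reach farthest to the left. Acrosome, tail and proteasome genes, in lists that hold no X-linked gene, stay near 0.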

How the data were processed

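Levels came from Affymetrix MoGene 1.0 ST arrays. The authors deposited linear intensity per transcript cluster. Per the submitters' processing notes, Affymetrix Expression Console 1.1 was used, with RMA. The sources used here do not state RMA's settings or the genome build. RMA usually makes the arrays' overall distributions alike, so a shift of most genes at once would not be seen. The number of arrays limits the precision.

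The log2 of the deposited intensity was taken. Of 35556 transcript clusters 21789 name 1 gene symbol, 1621 several and 12146 none, and 21698 matched RefSeq genes of GRCm38.p6 by identifier, which gave chromosomes and gene order. Genes reaching log2 6 on any array were compared: 624 on X, 9 on Y, 17217 on autosomes and 75 elsewhere. KO and WT spermatids have 1 array each, so 2-fold and 1.5-fold counts carry no p-value. limma 3.58.1 in R 4.3.3 fitted 4 groups with Benjamini-Hochberg adjustment at 0.05, and was tested on simulated data. p-values measure the spread between these arrays, which may be technical.

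Named are Rnf8, all genes 2-fold different, the extremes of each list, all Y-linked genes and chromosome 17 genes 1.5-fold different within 100 genes of Rnf8. Where the lower value was under log2 7, no fold is given. A few further genes (Apln, Med12, Gm773, family relatives, genes on either side of a threshold and those of the pachytene to spermatid comparison) were named after their values were seen. The members and lists were chosen with earlier results of these data known. Filters, scaling, choice of cluster, floors, a pseudocount, the replicate block, the prior and the pachytene arrays were varied.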

Additional observations from a re-analysis of the deposited data

Results flagged for a closer look

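Clusters outside the comparison, which uses only clusters with 1 gene symbol, also differed between the round spermatid arrays. Among 92 X-linked clusters that list several symbols, 23 (25%) were at least 2-fold lower in KO and none was higher. Between the replicate pachytene arrays, the 2-fold count was 2 in WT and 12 in KO. Median level was 9.92 in WT and 9.23 in KO spermatids. Of the 92, 41 had both KO pachytene arrays below both WT arrays, against 114 of 725 autosomal clusters with several symbols.

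Among 48 such Y-linked clusters 25 (52.1%) were at least 2-fold lower, against 0 between the WT and 14 between the KO pachytene replicates. All 48 were lower, by -2.37 to -0.19 with a median of -1.05, and 46 had both KO pachytene arrays below both WT arrays. Clusters of multicopy genes may read the same transcripts, so these are not 48 separate measurements. Of 725 autosomal clusters with several symbols, 4 (0.552%) were 2-fold lower, and 114 had both KO pachytene arrays below both WT arrays.

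Among 8097 clusters that the annotation does not list, 209 (2.58%) were at least 2-fold lower and 18 higher, against 74 between the WT and 663 between the KO pachytene replicates. This last count is therefore above 1 of the replicate gaps and below the other.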

How the results depend on the processing

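The count of 2-fold lower genes (63), of higher genes (6) and of lower X-linked genes (35) stayed within 1.5 times in every alternative filter, scaling, cluster choice and floor run. With a pseudocount of 64, which shrinks dim differences, the lower count was 36, all among the 63, and the higher count 2. Subtracting the median of each level class, an alternative chosen after seeing the data, gave 77 lower genes, of which 58 were among the 63. X-linked genes made up 49.4% to 69.4% of the lower genes, and none of the 69 genes 2-fold apart changed direction in a second quantile normalization, centring on bright autosomal genes (for single genes chosen after seeing the data), the pseudocount or the level classes. Of 98 other genes named by rule, Aard, Trf and Kdm5d did in at least 1 of these.

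In limma, 0 genes passed in round spermatids and 0 in pachytene cells. With the replicate block 39 and 43 passed, and with a trended and robust prior 2 passed in round spermatids. The replicate numbers do not pair the arrays (correlation of the pachytene replicate differences -0.23), and the block leaves 1 residual degree of freedom. Leaving out a pachytene array gave 0 in round spermatids and 0 to 2 in pachytene cells, with 2 without WT pachytene replicate 1. A spermatid array could not be left out, since each genotype has 1.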
